A study of Castanea mollissima with 18 samples.

Results

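In tissue cultures of Chinese chestnut (Castanea mollissima), 140 of 20365 tested genes (0.687%) had their lowest values in somatic embryo 8, 9 and 10, at least 2-fold below all of the other 15 libraries. The genes were chosen on log2(FPKM + 1), where FPKM is the number of sequenced fragments of a gene, scaled to the gene's length and to all mapped fragments of the library. A gene was tested if it reached 1 FPKM in at least 6 of the 18 libraries. It was chosen if its lowest value in the other 15 libraries exceeded its highest value in somatic embryo 8, 9 and 10 by at least 1 on that scale, a difference called the gap here. Of 151 genes past the gap (0.741% of those tested), 11 were left out because all of callus 1, 2 and 6, or all of callus 3, 4 and 5, lay at least 1 above every other library. The low values in somatic embryo 8, 9 and 10 are therefore what chose the genes. They are described below without a test.

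RNA was sequenced from 12 libraries labelled somatic embryo and 6 labelled callus, numbered within each tissue. The labels give no stage, line, medium, treatment or age. They do not say whether libraries came from separate cultures, so p-values cover the spread among the libraries fitted, and part of it may be technical. The RNA is of bulk tissue, so fewer cells that express a gene and less of its RNA per cell cannot be told apart.

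Callus is a mass of dividing plant cells without organs, kept growing in culture. Somatic embryos form from such cells without fertilisation and pass through stages much like those of a seed embryo, from a round cell mass to a body with cotyledons. Large sets of genes are switched on and off along that path, including those for cell division, patterning and the storage of protein and oil. The gene IDs of the table carry no names or descriptions and no annotation was used here, so roles of the 140 genes cannot be given, and the tissue labels could not be checked against marker genes.

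Facts of the libraries bear on every value below. The summed FPKM lay between 950919 and 1067585 per library, and it was 950919, 974652 and 955578 in somatic embryo 8, 9 and 10. Over all tested genes, the median difference between somatic embryo 8, 9 and 10 and the other 15 libraries was -0.0037 (log2) on FPKM as deposited and -0.0071 after median-of-ratios scaling. For the 140 genes it was -2.50 on both scales. Somatic embryo 8, 9 and 10 resembled each other, with a Spearman correlation over genes of 0.964 to 0.987, and shared at most 0.614% identical FPKM values in any pair. The correlation was 0.996 to 0.997 within callus 1, 2 and 6 and 0.994 to 0.996 within callus 3, 4 and 5. Between these callus sets it was 0.915 to 0.920. Within somatic embryo 5, 6 and 7 it was 0.9945 to 0.9956, for 1 and 12 it was 0.988, and for 2 and 11 it was 0.987. The fits below treat each library as independent, so p-values and standard errors may be too small. Read depth is unknown, since the values are FPKM without counts.

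**Figure D1:**
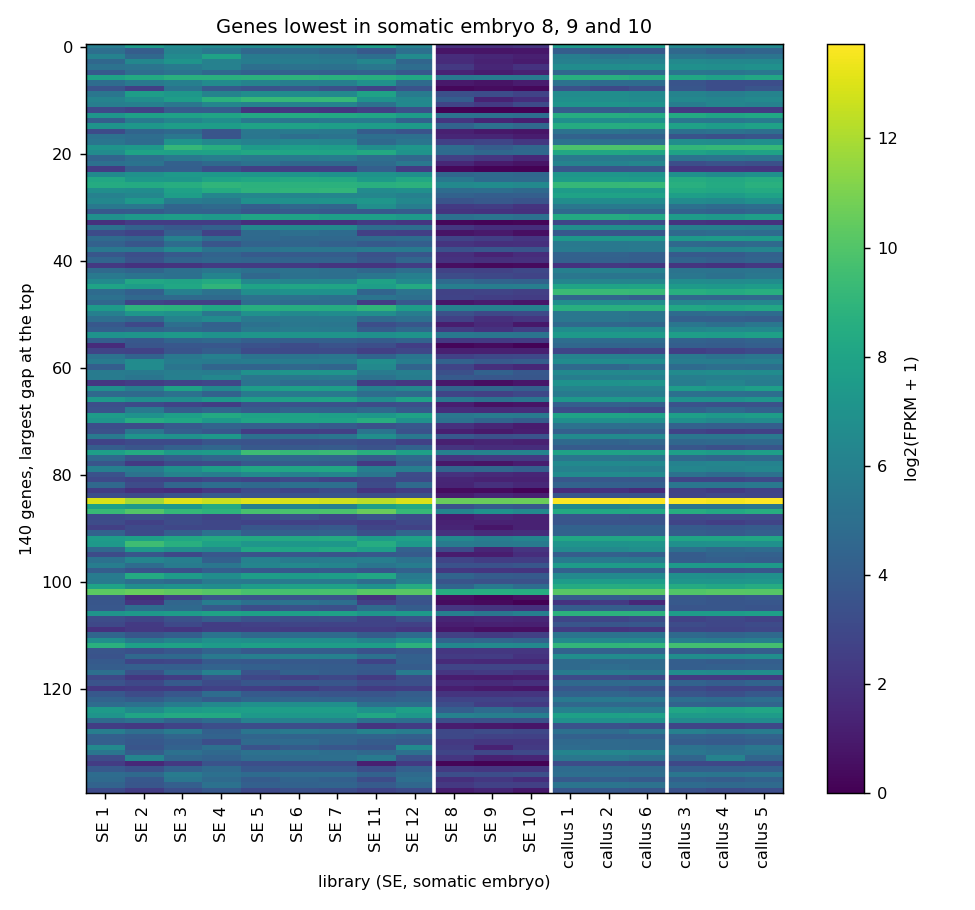
Level of each of the 140 genes (one row each, largest gap at the top) in the 18 libraries (columns), as log2(FPKM + 1) in colour. White lines part the other somatic embryos (SE), somatic embryo 8, 9 and 10, callus 1, 2 and 6, and callus 3, 4 and 5; the dark band under somatic embryo 8, 9 and 10 is what the rule chose, and the brightest row is Cm11G01270.gene.

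Most of the 140 genes were reduced, not absent, in somatic embryo 8, 9 and 10. Their median level was 4.24, 3.71 and 3.54 FPKM in somatic embryo 8, 9 and 10 and between 24.99 and 45.98 FPKM in each of the other 15 libraries. A gap of 1 on the log2(FPKM + 1) scale requires at least 1 FPKM in each of the other 15 libraries, a level that 15647 tested genes reached, and the added 1 favours abundant genes. Averaged over those 15 libraries, the 140 genes ranged from 3.66 to 9399 FPKM with a median of 40.7 FPKM, against 23.4 FPKM for the 15647. Of the 140 genes, 40 (28.6%) averaged 100 FPKM or more there, against 12.6% of the 15647.

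The size of the drop varied widely between genes. The mean of the other 15 libraries exceeded the mean of somatic embryo 8, 9 and 10 by a median of 7.87-fold, from 3.06-fold to 252-fold. The gene at 252-fold held 0.05, 0 and 0.05 FPKM in somatic embryo 8, 9 and 10, where the smallest step is 0.01 FPKM. Ratios of genes so near 0 FPKM are uncertain. The ratio was at least 5 in 111 genes, at least 10 in 47 genes and at least 20 in 26 genes. The gap, which sets the nearest libraries against each other, had a median of 1.28 and was at least 1.5 in 40 genes and at least 2 in 13. In 14 genes somatic embryo 8, 9 and 10 all lay under 1 FPKM. In 37 genes all 3 held 10 FPKM or more, and in 10 genes 50 FPKM or more. A value of 0 was listed for 2 genes, and for neither in all 3 libraries.

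The low libraries differed little from each other in most of these genes. The range among somatic embryo 8, 9 and 10 had a median of 0.30 (log2), against 0.25 in the 15647 genes at 1 FPKM in all of the other 15 libraries. It exceeded 1 in 7 genes, reached 2.76 at most and was larger than the gap in 3 genes. Somatic embryo 8 was the highest of the 3 in 74 genes (52.9%, against 46.6% of the 15647). Somatic embryo 9 was the highest in 41 genes and somatic embryo 10 in 25 (17.9%, against 27.1%).

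Genes near the limit were similar on both sides of it. The 3 genes just inside had gaps of 1.00, 1.01 and 1.01, and their lowest values outside somatic embryo 8, 9 and 10 were 4.38, 11.7 and 8.30 FPKM against highest values within of 1.69, 5.34 and 3.63 FPKM. The 3 just outside, with gaps of 0.996, 0.992 and 0.989, stood at 14.08, 119 and 14.46 FPKM against 6.56, 59.5 and 6.79 FPKM.

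**Figure D2:**
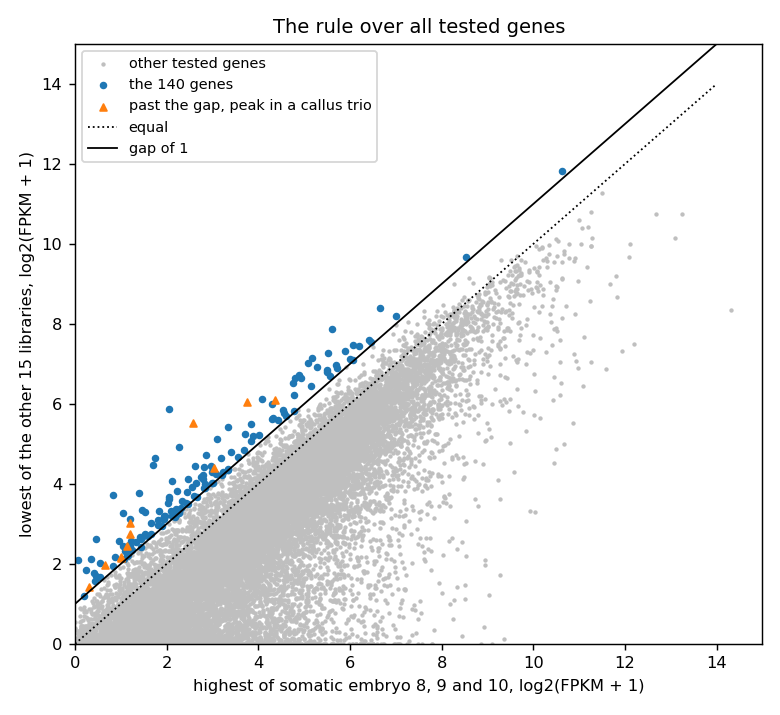
Each point is a tested gene, with its highest value in somatic embryo 8, 9 and 10 on the horizontal axis and its lowest value in the other 15 libraries on the vertical axis, both as log2(FPKM + 1). The 140 genes (blue) lie on or above the solid line of a gap of 1, as do the 11 left out (orange triangles). The 140 genes run from low to very high expression, and the blue point furthest to the top right is Cm11G01270.gene.

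The largest gap belonged to Cm03G01027.gene, which fell to a few FPKM in somatic embryo 8, 9 and 10. It stood at 2.61, 2.65 and 3.12 FPKM there. In the other 9 somatic embryos it ranged from 57.4 FPKM (somatic embryo 1) through a median of 94.8 to 199 FPKM (somatic embryo 11). In callus it stood at 163, 154 and 169 FPKM in libraries 1, 2 and 6 and at 83.6, 86.8 and 88.9 FPKM in libraries 3, 4 and 5. The lowest of the 15 was thus far above the highest of the low 3, with a gap of 3.82 and a ratio of means of 41.2. The other embryos and callus overlapped, and limma gave no call between them (log2 fold change -0.22 ± 0.27 SE, adjusted p = 0.51). Without callus 1, 2 and 6 that difference turned to 0.22.

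The next largest gap, 2.91, belonged to Cm03G01026.gene, whose ID number is adjacent. It had 0.73, 0.73 and 0.76 FPKM for somatic embryo 8, 9 and 10. The other somatic embryos ranged from 13.4 FPKM (somatic embryo 11) through a median of 26.7 to 69.5 FPKM (somatic embryo 3). Callus 1, 2 and 6 held 15.5, 12.6 and 12.2 FPKM, and callus 3, 4 and 5 held 24.0, 16.6 and 20.5 FPKM. The order of libraries differed from that of Cm03G01027.gene: somatic embryo 2 and 11 were the highest embryos for Cm03G01027.gene (182 and 199 FPKM) and the lowest for Cm03G01026.gene (15.4 and 13.4 FPKM). Callus 1, 2 and 6 lay above callus 3, 4 and 5 for Cm03G01027.gene and below them for Cm03G01026.gene. Limma made no call between the other embryos and callus (log2 fold change 0.71 ± 0.29 SE, adjusted p = 0.055). The 2 genes thus shared the low values in somatic embryo 8, 9 and 10 but not their pattern elsewhere.

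The most abundant of the 140 was Cm11G01270.gene, named here after its values were seen. It had the highest mean FPKM of all 33991 gene IDs in the other 15 libraries and the 38th highest in somatic embryo 8, 9 and 10. There it stood at 1530, 1529 and 1584 FPKM. The other somatic embryos ranged from 3656 FPKM (somatic embryo 2) through a median of 7598 to 8629 FPKM (somatic embryo 5). All callus libraries lay higher, between 11798 and 13592 FPKM with a median of 13282. The other embryos averaged 6957 ± 1674 FPKM (SD, n = 9) and callus 13064 ± 679 FPKM (SD, n = 6), without overlap. Its log2 fold change of -0.95 ± 0.17 SE had a limma adjusted p of 0.000346 but missed the 2-fold limit for a call. After quantile normalization it was -0.11 (limma adjusted p = 0.747). This gene held 23.0% to 51.1% of the summed FPKM of the 140 genes in a library.

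Together the 140 genes took a small part of the transcripts in somatic embryo 8, 9 and 10. Their summed FPKM was 3630, 3603 and 3560 there, or 0.370% to 0.382% of the library. In the other 9 somatic embryos it was 19413 ± 2143 FPKM (SD, n = 9), from 15924 to 22265, or 1.59% to 2.27% of the library. In callus it was 26847 ± 1645 FPKM (SD, n = 6), from 23925 to 28483, or 2.44% to 2.89%. The other embryos and callus did not overlap. They did overlap once Cm11G01270.gene was left out, at 9433 to 13696 FPKM in the other embryos and 12127 to 14934 FPKM in callus, and again after median-of-ratios scaling of all 140, at 16367 to 22876 and 21694 to 26776. Each of these ranges lay above somatic embryo 8, 9 and 10, which held 1976 to 2100 FPKM without Cm11G01270.gene.

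The rule does not fix how the other 9 somatic embryos compare with callus, and that contrast was tested with limma over all 20365 genes in 15 libraries. Calls required at least a 2-fold difference and an adjusted p (Benjamini-Hochberg) under 0.05. Of the 140 genes, 19 were lower in the other embryos than in callus (13.6%), 8 were higher (5.71%) and 113 did not pass. Over all tested genes 22.5% were called, 10.8% lower and 11.7% higher. Over the 15647 genes at 1 FPKM in all 15 libraries, 15.7% were called, 8.32% lower and 7.33% higher. The 19.3% of the 140 that were called thus lay between these backgrounds.

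The balance of directions moved with scaling and with the choice of callus libraries, both for the 140 genes and for all tested genes. In each setting given here, more of the called genes among the 140 were lower than higher. As deposited, 29.6% of the called genes among the 140 were higher in the other embryos, against 51.9% of the called genes among all tested. Among the 15647 genes at 1 FPKM in all 15 libraries, 1147 were called higher and 1302 lower. With median-of-ratios scaling 11 were higher and 16 lower (40.7% higher), and 61.1% of all called genes were higher. Without callus 3, 4 and 5, 6 were higher and 33 lower, beside 2749 and 2838 of all tested genes. Without callus 1, 2 and 6, 10 were higher and 17 lower, beside 1619 and 1733. The 11 genes left out, of which 9 peaked in callus 1, 2 and 6 and 2 in callus 3, 4 and 5, bear on this balance by the rule itself: 8 were called lower, and with them 27 of 151 genes (17.9%) were lower. The median log2 fold change of the 140 genes was -0.28, against -0.13 over all tested genes and -0.16 over the 15647 genes at 1 FPKM in all 15 libraries. After median-of-ratios scaling it was -0.12, against 0.02. Without callus 1, 2 and 6 the order turned, at -0.074 for the 140 genes and -0.16 for all tested genes.

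In 19 of the 140 genes (13.6%) all 9 other somatic embryos lay below all 6 callus libraries, and in 5 (3.57%) all lay above. The shares over the 15647 genes were 16.7% and 6.06%, and over all tested genes 16.3% and 8.86%. Both shares among the 140 genes were the smaller ones.

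**Figure D3:**
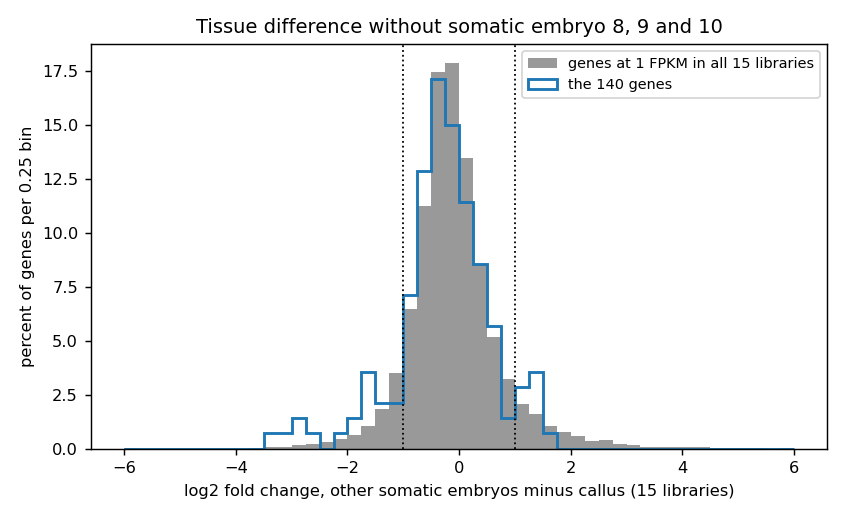
Percent of genes by log2 fold change between the other 9 somatic embryos and the 6 callus libraries, in bins of 0.25, for the 140 genes (blue line) and for the 15647 genes at 1 FPKM in all 15 libraries (grey). Dotted lines mark a 2-fold difference; both distributions centre just below 0, and the 140 genes range from -3.31 to 1.70.

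The member with the largest fall from callus to the other embryos was Cm06G00102.gene. The low libraries, somatic embryo 8, 9 and 10, held 5.62, 5.92 and 5.00 FPKM. The other embryos ranged from 17.6 FPKM (somatic embryo 2) through a median of 37.4 to 126 FPKM (somatic embryo 6), with somatic embryo 5, 6 and 7 the highest at 109, 126 and 125 FPKM. Callus 1, 2 and 6 held 662, 623 and 597 FPKM, and callus 3, 4 and 5 held 395, 350 and 395 FPKM. Its 3 separate tiers, with somatic embryo 8, 9 and 10 at the bottom and callus at the top, follow from how it was picked. The rule put somatic embryo 8, 9 and 10 lowest, and the gene was named from called members without overlap between the tissues. The other embryos averaged 62.3 ± 45.5 FPKM (SD, n = 9) against 504 ± 138 FPKM (SD, n = 6) in callus (log2 fold change -3.31 ± 0.44 SE, limma adjusted p = 2.21e-05).

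Cm09G02352.gene had the next largest fall and a similar order. Somatic embryo 8, 9 and 10 held 0.83, 0.45 and 0.79 FPKM. Of the other embryos, 6 held 3.52 to 6.54 FPKM, while somatic embryo 5, 6 and 7 held 37.1, 28.2 and 29.1 FPKM. Callus 1, 2 and 6 stood at 125, 128 and 138 FPKM and callus 3, 4 and 5 at 54.3, 71.0 and 53.2 FPKM. The other embryos and callus did not overlap, which the naming of the gene required (log2 fold change -3.13 ± 0.52 SE, limma adjusted p = 0.000181).

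Among the 8 genes higher in the other embryos than in callus, Cm06G01935.gene had the largest rise of the 3 that did not overlap between the tissues. Its values were 8.43, 4.82 and 3.98 FPKM for somatic embryo 8, 9 and 10. The other embryos ranged from 28.4 FPKM (somatic embryo 1) through a median of 52.9 to 119 FPKM (somatic embryo 5). Somatic embryo 5, 6 and 7 were the highest at 119, 108 and 114 FPKM, and somatic embryo 3 and 4 held 52.9 and 84.2 FPKM. Nearer to callus, somatic embryo 1, 2, 11 and 12 held 28.4, 34.2, 32.1 and 30.7 FPKM. Callus ranged from 18.6 to 24.6 FPKM with a median of 22.1. Callus had to lie between the low embryos and the others, since the rule and the naming of the gene each required no overlap. The log2 fold change was 1.36 ± 0.34 SE (limma adjusted p = 0.00393), and without callus 3, 4 and 5 the call was lost (log2 fold change 1.196, limma adjusted p = 0.055).

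Cm02G01626.gene was the second and more abundant. Its levels were 75.7, 127 and 88.2 FPKM for somatic embryo 8, 9 and 10. The other embryos ranged from 472 FPKM (somatic embryo 4) through a median of 844 to 1570 FPKM (somatic embryo 11), and callus from 295 to 378 FPKM with a median of 316. Callus again lay between both sets of embryos, as the rule and the naming of the gene required. The other embryos averaged 832 ± 341 FPKM (SD, n = 9) and callus 329 ± 35.9 FPKM (SD, n = 6) (log2 fold change 1.25 ± 0.22 SE, limma adjusted p = 0.000306).

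**Figure D4:**
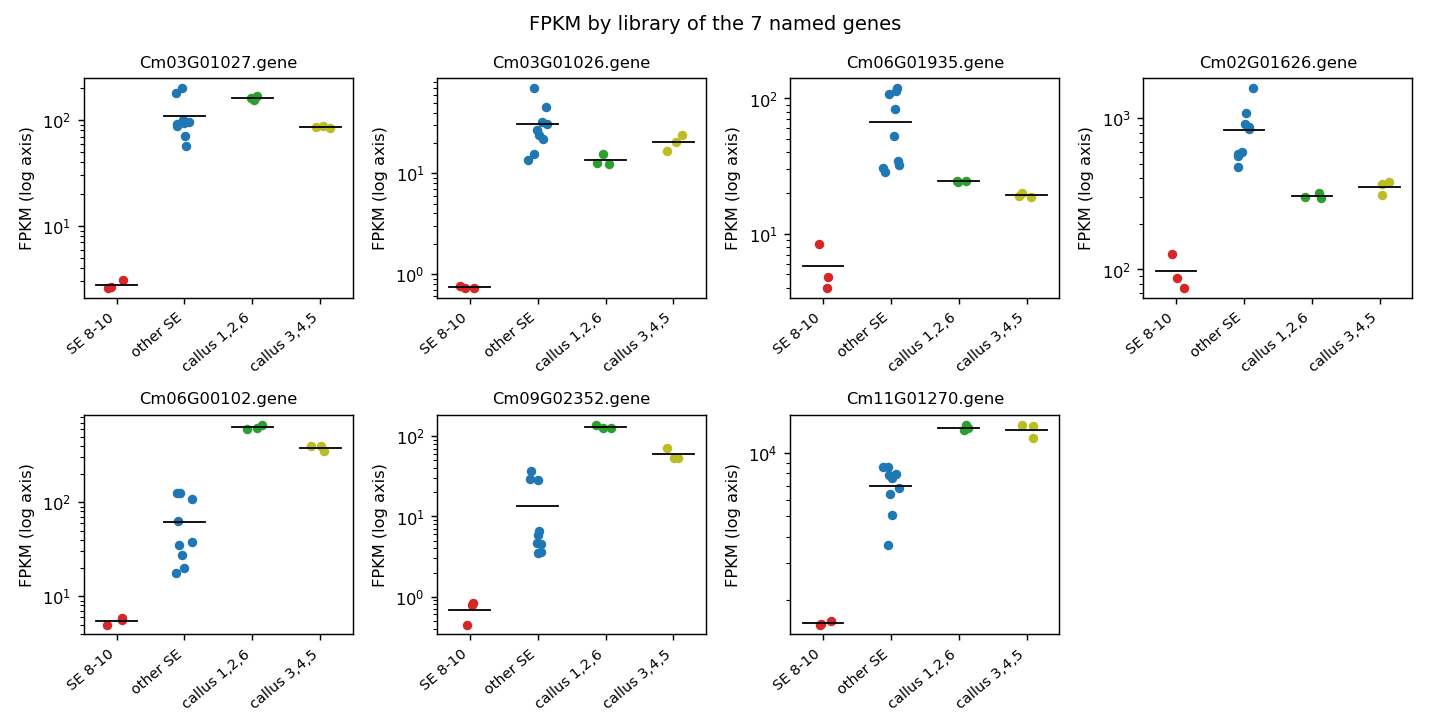
FPKM (log axis) of the 7 named genes, with one point per library and a bar at the mean, in somatic embryo (SE) 8, 9 and 10, the other 9 somatic embryos, callus 1, 2 and 6, and callus 3, 4 and 5. Somatic embryo 8, 9 and 10 are lowest in each panel by the rule. Callus is highest in Cm06G00102.gene and Cm09G02352.gene, which were named for a fall without overlap between the tissues. It lies between the embryos in Cm06G01935.gene and Cm02G01626.gene, which were named for a rise without overlap. Callus is also highest in Cm11G01270.gene, which was named for its abundance.

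Outside somatic embryo 8, 9 and 10 the 140 genes varied by different amounts. Their range over the other 15 libraries had a median of 1.91 (log2), against 1.42 for the 15647 genes, and ran from 0.50 to 5.16. In 11 genes (7.86%) it was under 1, against 23.5% of the 15647, and in 19 genes it was 3 or more. In 38 genes the gap, which the rule sets at 1 or more, was larger than this whole range. Shares over the 15647 genes are not given here for these 19 and 38 genes. The standard deviation (log2) of the 140 genes had a median of 0.49 among the other 9 somatic embryos and of 0.31 in callus, against 0.39 and 0.17 for the 15647.

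Most of the 140 genes ordered the callus libraries in the same way. In 88 genes (62.9%) callus 1, 2 and 6 all lay above callus 3, 4 and 5, against 31.1% of the 15647 genes. The opposite held in 28 genes, against 39.2% of the 15647. The median difference between the means was 0.33 (log2) for the 140 genes and -0.04 for the 15647. After median-of-ratios scaling the shares were 64.3% and 18.6%, against 35.8% and 34.4%, and the medians 0.38 and 0.01. Single genes ran from -2.15 to 2.79. The rule had already removed 9 genes peaking in callus 1, 2 and 6. These callus sets are named by the rule and not by the labels, and their difference was not tested.

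Among the other 15 libraries, the lowest value of a gene lay in a somatic embryo for 115 of the 140 genes (82.1%) and in callus for 25. The share was 77.4% for the 15647 genes, and with median-of-ratios scaling 70.0% and 68.9%. Somatic embryo 1 held the lowest value in 21 genes (15.0%, against 4.24% of the 15647) and the highest in 0 (against 8.34%). With median-of-ratios scaling it held the lowest value in 31 genes. Somatic embryo 2 held the lowest value in 34 genes (24.3%, against 16.7%), and in 17 with that scaling. Shares of the 15647 genes for single libraries with that scaling are not given here, so these 2 scaled counts have no background. The highest value lay in callus for 65 genes (46.4%, against 41.0% of the 15647) and in callus 1 or 2 for 22 genes each. Somatic embryo 4 held the highest value in 22 genes (15.7%, against 13.0% of the 15647).

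**Figure D5:**
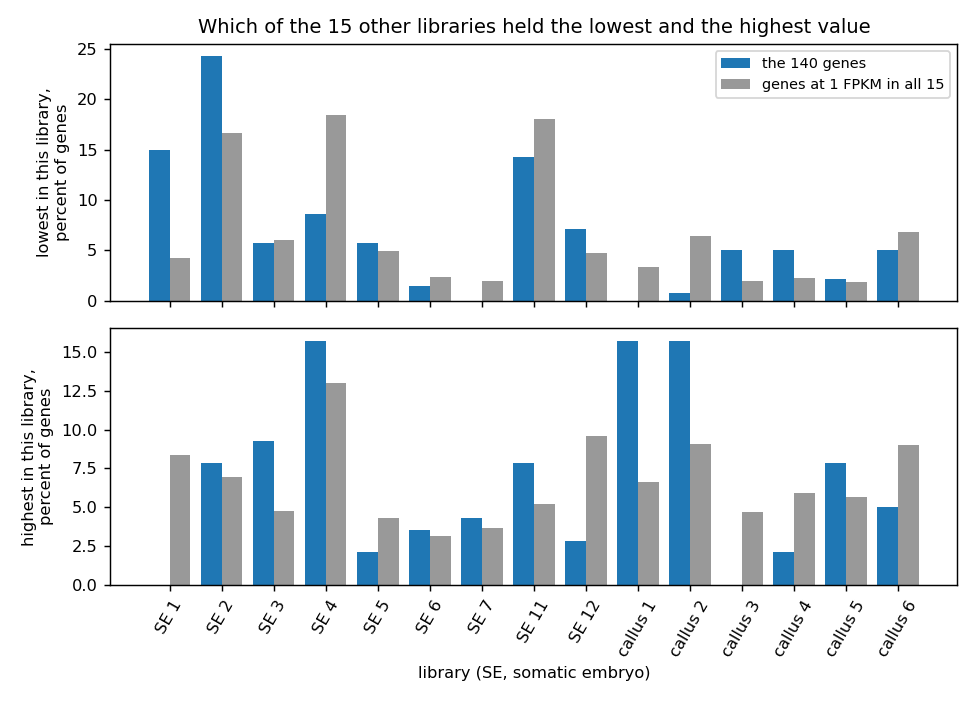
For each of the 15 libraries other than somatic embryo 8, 9 and 10, the percent of genes with their lowest (top) or highest (bottom) FPKM there, for the 140 genes (blue) and the 15647 genes at 1 FPKM in all 15 (grey). On FPKM as deposited, somatic embryo (SE) 1 and 2 held the lowest value more often among the 140 genes than among the 15647, and callus 1 and 2 the highest.

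Some of the 140 genes had neighbouring ID numbers. Of the tested genes whose ID differs by 1 from that of a member, 8 of 174 (4.60%) were members themselves, against 0.687% of all tested genes. Within 5 ID numbers it was 15 of 818 (1.83%) and within 10 it was 20 of 1575 (1.27%). These 20 genes formed 9 runs of 2 or 3, of which Cm03G01026.gene and Cm03G01027.gene are one. Among the tested neighbours at a distance of 1 that were not members, 15.1% had a gap above 0, against 7.88% of all tested genes. Whether neighbours are similar in sequence, and so could share reads, was not analysed here.

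By the first part of the ID, the largest numbers of members were 21 of 3021 tested genes in Cm01 (0.695%), 19 of 1404 in Cm07 (1.35%) and 17 of 1746 in Cm02 (0.974%). The smallest shares were 0 of 283 in Cm00, 5 of 1593 in Cm04 (0.314%) and 6 of 1767 in Cm08 (0.340%). These shares are counts of IDs and were not tested.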

How the data were processed

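RNA sequencing values of 18 libraries, 12 of somatic embryo and 6 of callus, were analysed. The authors deposited FPKM values with 2 decimals in a table of 33991 gene IDs. Per the submitters' processing notes, FastQC 0.11.9, Trimmomatic and STAR 2.7.10b were used. Which program gave the FPKM, and on which build and annotation, is not given in the sources used here. A further 195 sample columns were not used. FPKM depends on a library's total, so a few abundant genes can lower all others.

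The members, lists and tests were chosen with earlier results of these data known. Values were taken as log2(FPKM + 1). The other 9 somatic embryos were compared with callus by limma 3.58.1 in R 4.3.3 (trend and robust settings, statmod 1.5.0), fitted on 20365 genes, with Benjamini-Hochberg adjustment over all of them. Because 1 is added before the log2, fold changes of genes with low values are understated. The fit was also run on simulated data with independent noise in each library. Such data cannot check error rates for libraries that form close sets. Named genes were the 2 members with the largest gap and, among called members without overlap between the tissues, the 2 that rose most and the 2 that fell most. The background of genes at 1 FPKM in all 15 libraries was chosen after the data were seen. Marker lists could not be matched to the IDs and were not run. A test planned for the summed FPKM is not given, because the members were chosen from the same values.

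Whether low values keep the steps of whole reads was checked. In 4 pairs of libraries at most 14.8% of genes at 0.3 to 1 FPKM lay within 0.02 (log2) of such steps, against a median of at least 6.95% for other offsets. Reads were not recovered and no count model was used. Python 3.11.15, NumPy 2.4.6 and pandas 2.3.3 were used for the remaining values. Alternatives were other pseudocounts, filters, scalings and gaps, a fit without trend and robust settings, an exact rank-sum test, a block for the replicate number, and libraries left out singly or in sets.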

Additional observations from a re-analysis of the deposited data

How the results depend on the processing

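The number of genes chosen by the rule, 140, was 127 to 183 under the other filters and scalings and with callus peaks kept. It rose to 234 and 257 with pseudocounts of 0.1 and 0.01, and was 453, 40 and 13 with gaps of 0.5, 1.5 and 2. Leaving out 1 library gave 140 to 209 genes, the most without somatic embryo 8. The gap of a gene cannot shrink when a library is left out, so a fall in this number was nearly precluded. Median-of-ratios scaling chose 176 genes, 135 of them among the 140. The number of members called between the other somatic embryos and callus, 27, was 24 to 39 under the other fits and tests, 24 to 29 when 1 library was left out, and 54 (11 higher, 43 lower, 38.6% of members against 49.4% of all genes) without a fold threshold. The 39 members were called without callus 3, 4 and 5, a fit that called 27.4% of all genes, against 22.5% in the main fit. The exact rank-sum test called 24 members, and its share over all genes is not given here. All genes called, 4589, became 10065 without the fold threshold and 4227 to 4808 (20.8% to 23.6%) when 1 library was left out. With somatic embryo 8, 9 and 10 in the fit, 37 members were called, all lower, beside 21.9% of all genes (2295 higher, 2171 lower), and the median log2 fold change of the members went from -0.28 to -0.83; those libraries chose the members. Without callus 1, 2 and 6 the median was -0.074, above the -0.16 of all genes, and the cause was not tested. When 1 library was left out it was -0.31 to -0.23.

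When samples 1 to 6 of each tissue were fitted with a replicate block, 28 members and 4365 genes were called, against 28 and 4432 without the block, with a median of -0.25 in both. The labels do not pair the numbers. Samples with equal numbers had deviations correlated at -0.08 to 0.01, and none had its best match in its own number. The summed FPKM of the 140 genes was -27.7% in the other embryos relative to callus. It was -9.62% without Cm11G01270.gene, -18.7% after median-of-ratios scaling and -29.2% to -26.1% when 1 library was left out, which was added after the data were seen. In single genes, Cm03G01027.gene reversed to 0.22 without callus 1, 2 and 6, and Cm03G01026.gene to -0.30 with all 18 libraries; neither was called under any setting run for it. Cm06G01935.gene and Cm02G01626.gene lost their calls with all 18 libraries (0.57 and 0.49). Cm06G01935.gene missed the p threshold without callus 3, 4 and 5 at a log2 fold change of 1.196. Cm11G01270.gene gained a call with all 18 libraries, at -1.48, and was at -0.11 (limma adjusted p = 0.747) after quantile normalization. That scaling gives equal ranks equal values, which narrows differences in a gene at or near the top rank. As depth is unknown, its effect on genes near 0 FPKM cannot be bounded.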
